A study of Callithrix jacchus with 54 samples.

Results

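The cells compared here were common marmoset embryonic stem cells (cjESCs) on their way to primordial germ cell-like cells (cjPGCLCs). They were taken at 12, 24 and 48 h from the 2 routes of the study, a chemical route with the WNT inhibitor IWR1 and a transgenic route with SOX17. The members are the 12 libraries of these cells, out of 54 in the series, with 2 libraries for each route at each time. They were chosen by their labels alone, as unsorted cells of the whole aggregate, and were compared within each time. All came from the line CMES40 with fluorescent reporters at BLIMP1 (BLIMP1-tdTomato) and NANOS3 (NANOS3-eGFP), and all were cultured with BMP4, LIF, SCF, EGF and a Rock inhibitor, a mixture called BLSE.

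Under the BLSE + IWR1 condition the cells carried no transgenes (genotype wild type), were maintained in the medium PESFA, were pre-treated for 24 h with the WNT agonist IM12 and activin A, and then received IWR1, which blocks tankyrase and so stabilizes the destruction complex of β-catenin. Under the SOX17 + BLSE condition the cells carried a construct set for inducible human genes (rtTA, tetO-BLIMP1, SOX17-GR and DD-TFAP2C), were maintained in the medium DK20FA without pre-treatment, and received dexamethasone, which activates a fusion of SOX17 with the glucocorticoid receptor. The transgenic line grew from picked colonies, and the end of the TFAP2C construct's name is numbered differently from library to library in its labels. Line, maintenance medium, pre-treatment, dexamethasone and IWR1 therefore differ together between the routes and cannot be told apart. Nothing states that the replicates came from separate cultures beyond the words biological duplicates. The p-values therefore measure the spread between replicate libraries, pooled over all 27 conditions of the series.

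In primates, primordial germ cells arise when BMP and WNT signals reach cells that are still competent, and SOX17, TFAP2C and PRDM1 (BLIMP1) then form the core of the germ cell program. SOX17 acts at the top of it, TFAP2C opens and holds regulatory elements, PRDM1 represses somatic genes, and NANOS3 is an RNA-binding protein that protects the specified germ cells. SOX2 is kept in mouse germ cells but is lost from those of primates, where SOX17 takes its place, and WNT that goes on for too long drives the same competent cells to mesoderm through TBXT and EOMES.

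Expression was read as TPM (a share of transcripts corrected for length) for 14812 genes, and was compared on the scale log2(TPM + 1), which understates the change of weakly expressed genes. Each difference is signed as the IWR1 route minus the SOX17 route, so a negative value means a lower level with IWR1. A gene was called at an adjusted p under 0.01 (limma, Benjamini-Hochberg over 11197 genes), and a differentially expressed gene (DEG) also differed more than 4-fold with a mean log2 value above 1.5. The depth is unknown because TPM keep no read totals. Between 11918 and 12581 genes were above 0 in a library of the routes, their TPM summed to between 829026 and 838641, and replicates correlated across genes at between 0.981 and 0.992, genes not being independent replicates. With 2 libraries against 2, the smallest p an exact permutation test can give for 1 gene is 0.33, so the calls rest on a spread pooled over all 27 conditions. A limma fit to the 4 libraries of a time alone called 0 genes at each time, with 2994, 3498 and 3017 genes at an unadjusted p under 0.05 at 12, 24 and 48 h.

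The routes differed in many genes at every time. More were lower than higher with IWR1 at 12 and 24 h, while the split at 48 h rested on single libraries. At 12 h, 151 genes were DEGs, 41 higher and 110 lower, which is 1.35% of the genes tested. At 24 h there were 172 DEGs (1.54%), 54 higher and 118 lower, and at 48 h there were 201 (1.80%), 65 higher and 136 lower. Of 333 genes that were DEGs at any time, 49 were DEGs at all 3 times, 17 of them higher and 32 lower, and 0 were higher at one time and lower at another. With no limit on the fold, 5.61% of the genes were called higher and 9.19% lower at 12 h, 5.31% and 8.35% at 24 h, and 8.06% and 12.9% at 48 h. These shares are the background for the gene groups below. The median difference over all genes was −0.047, −0.022 and −0.068 at the 3 times. The split of the calls at 48 h, 903 higher and 1440 lower, depended on the scaling. It was 1183 and 1209 after median-ratio scaling and 1204 and 1249 after quantile normalization. That at 12 h, 628 and 1029, became 843 and 925 after quantile normalization. The 48 h split also turned with the library left out. Without replicate 1 of the IWR1 route 123 DEGs were higher and 114 lower, and 971 genes were called higher and 806 lower. Without its replicate 2 the DEGs were 55 and 169, and the calls 497 and 1697. The 1657 calls at 12 h dropped to 843 without replicate 2 of the IWR1 route and to 960.0 without replicate 1 of the SOX17 route. The 1530 at 24 h dropped to 899 and 956 without replicate 1 or 2 of the IWR1 route and 918 without replicate 1 of the SOX17 route. The 2343 at 48 h dropped to 1445 and 1395 without replicate 1 or 2 of the SOX17 route. In the gene groups below, the counts, also those above 3, can therefore rest on single libraries.

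**Figure D1:**
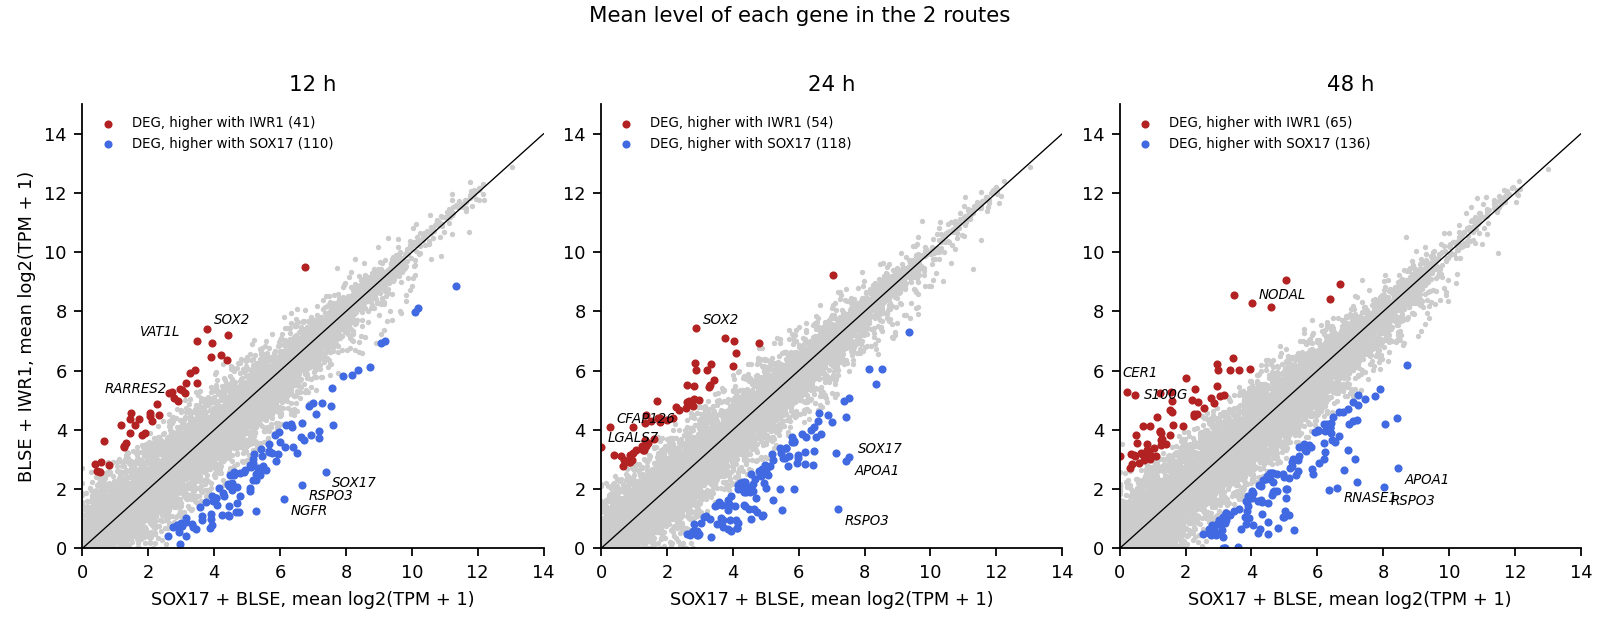
Mean level of each gene under SOX17 + BLSE (horizontal axis) and BLSE + IWR1 (vertical axis), both as mean log2(TPM + 1) over 2 libraries, at 12, 24 and 48 h. Red and blue points are the DEGs, 41 and 110 at 12 h, 54 and 118 at 24 h, and 65 and 136 at 48 h, grey points are the other genes, and the line marks equal levels. SOX2 lay far above the line at 12 and 24 h and SOX17 and RSPO3 far below it.

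The core germ cell genes SOX17, PRDM1, TFAP2C and NANOS3 were higher under SOX17 + BLSE at every time, and SOX2 was higher under BLSE + IWR1. SOX17 (gene 100396115), the transcription factor that starts the program, stood at 4.97 and 5.08 TPM at 12 h, 9.14 and 6.06 TPM at 24 h and 25.3 and 15.9 TPM at 48 h with IWR1. With the SOX17 transgene it stood at 164 and 168 TPM at 12 h, 180.2 and 189 TPM at 24 h and 368 and 322 TPM at 48 h. Every library of the SOX17 route was above every library of the IWR1 route, while within the IWR1 route the 48 h libraries were the highest. The difference was −4.79 ± 0.29 (log2 ± SE) at 12 h, −4.46 ± 0.29 at 24 h and −4.03 ± 0.29 at 48 h, or 33.04-, 24.3- and 16.7-fold (adjusted p = 8.69e-15, 3.95e-14 and 2.87e-13). Reads of the human transgene and of the marmoset gene cannot be separated here, so the level in the transgenic line may hold both. In the same line under BLSE without SOX17 induction, SOX17 was at 57.6 and 57.1 TPM at 48 h.

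PRDM1 (gene 100401970) stood at 20.2 and 15.01 TPM at 12 h, 12.8 and 14.4 TPM at 24 h and 8.74 and 13.3 TPM at 48 h with IWR1. With SOX17 it stood at 67.4 and 62.1 TPM at 12 h, 72.8 and 62.7 TPM at 24 h and 73.4 and 72.3 TPM at 48 h. The levels of the IWR1 route lay under those of the pre-treated cells, 24.5 and 21.2 TPM, and the groups did not overlap. The difference was −1.83, −2.23 and −2.65 on the log2 scale at 12, 24 and 48 h (SE 0.21, adjusted p = 3.04e-08, 4.46e-10 and 4.48e-12), which at 48 h is 6.61-fold. TFAP2C (gene 100400638) had the highest TPM, a level per transcript length, of the 3 core factors in every library. With IWR1 it stood at 143 and 101 TPM at 12 h, 157 and 139 TPM at 24 h and 137 and 150.0 TPM at 48 h, and with SOX17 at 464 and 489.6 TPM at 12 h, 481 and 482 TPM at 24 h and 525 and 539.8 TPM at 48 h. It differed by −1.98, −1.7 and −1.89 (SE 0.18, adjusted p of at most 8.63e-09). It lay between 101 and 157 TPM in the libraries with IWR1 and between 464 and 539.8 TPM in those with SOX17. The transgenic line also carries constructs for PRDM1 and TFAP2C, which were not induced here, and without SOX17 induction it held 19.1 and 13.99 TPM of PRDM1 and 249.6 and 255 TPM of TFAP2C at 48 h.

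NANOS3 (gene 100405226), for which the line carries no transgene, showed the same order. It stood at 6.11 and 5.18 TPM at 12 h, 9.1 and 7.85 TPM at 24 h and 15.8 and 10.2 TPM at 48 h with IWR1. The SOX17 route held 43.9 and 34.4 TPM at 12 h, 75.6 and 68.7 TPM at 24 h and 106 and 94.6 TPM at 48 h. In both routes the 12 h libraries were the lowest and the 48 h libraries the highest, and the highest library with IWR1 stayed below the lowest with SOX17. The difference was −2.59 ± 0.29 at 12 h, −2.95 ± 0.29 at 24 h and −2.88 ± 0.29 at 48 h (adjusted p = 2.58e-08, 1.59e-09 and 1.57e-09). It did not pass the test of a change between 12 and 48 h (−0.29, adjusted p = 0.789). Both routes stood above the starting cells, at 1.53 and 2.58 TPM and 0.42 and 0.74 TPM, while BLSE without SOX17 held 3.82 and 3.44 TPM at 48 h.

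SOX2 (gene 100407856), a pluripotency factor, ran the opposite way. With IWR1 it stood at 134 and 218 TPM at 12 h, 159.8 and 187 TPM at 24 h and 41.4 and 68.4 TPM at 48 h, and with SOX17 at 14.98 and 10.8 TPM at 12 h, 5.57 and 7.21 TPM at 24 h and 2.66 and 3.36 TPM at 48 h. The starting cells held 216 and 209 TPM before IWR1 and 191 and 200.4 TPM before SOX17, so that all 6 SOX17 libraries lay far below their start while the 12 and 24 h libraries with IWR1 did not. The difference was 3.65 ± 0.28, 4.57 ± 0.28 and 3.76 ± 0.28 at the 3 times, 27.1-fold at 24 h (adjusted p of at most 5.74e-12). Under BLSE without SOX17 induction SOX2 was at 32.5 and 36.5 TPM at 12 h and 2.44 and 4.08 TPM at 48 h, near the level with SOX17 at 48 h.

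**Figure D2:**
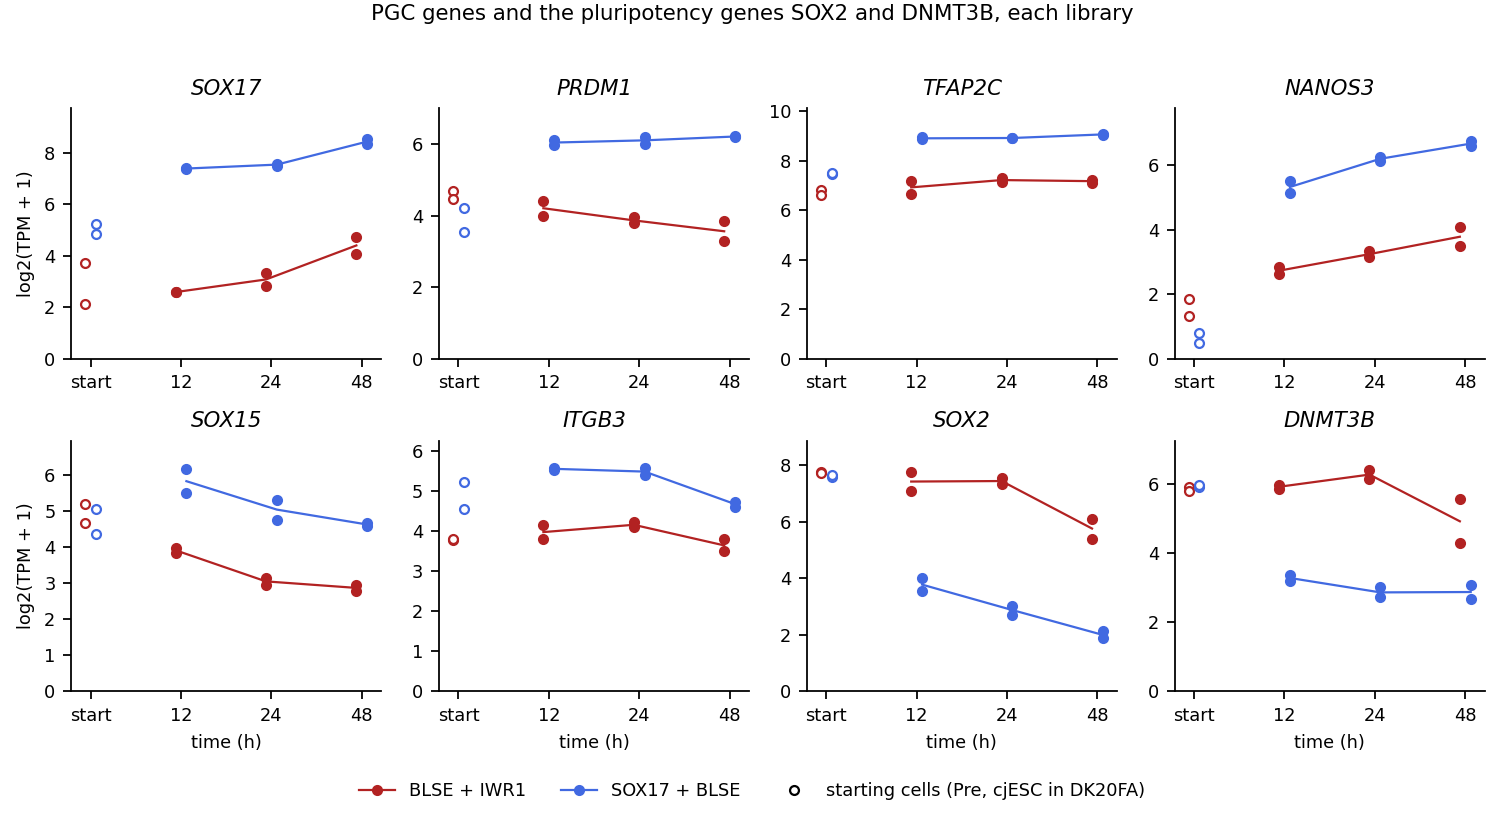
Level of 8 genes in each library as log2(TPM + 1) against the time of induction in h (evenly spaced, not to scale), red for BLSE + IWR1 and blue for SOX17 + BLSE. Points are single libraries, lines join the means of 2, and open points are the starting cells, Pre for the IWR1 route and cjESCs in DK20FA for the SOX17 route. The 6 germ cell genes are higher with SOX17 at every time, and SOX2 and DNMT3B are higher with IWR1.

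Over the list of 12 germ cell genes tested, 0 were higher with IWR1 at any time, and 6, 7 and 10 were lower at 12, 24 and 48 h. These counts include SOX17, PRDM1 and TFAP2C at each time, for which the transgenic line carries constructs. The median difference of the list was −1.21, −1.07 and −1.33, beside −0.047, −0.022 and −0.068 over all genes, of which 9.19%, 8.35% and 12.9% were called lower. SOX15, a SOX factor of early germ cells, stood at 14.7 and 13.3 TPM at 12 h, 6.76 and 7.77 TPM at 24 h and 5.82 and 6.77 TPM at 48 h with IWR1. Under SOX17 + BLSE it was at 44.03 and 69.6 TPM at 12 h, 25.96 and 38.7 TPM at 24 h and 23.04 and 24.1 TPM at 48 h. It was lower with IWR1 at all times (−1.91, −1.99 and −1.75, adjusted p of at most 2.08e-06). ITGB3, an integrin subunit at the cell surface, stood at 10.2 and 12.8 TPM with IWR1 and 23.3 and 25.5 TPM with SOX17 at 48 h (−1.03, adjusted p = 0.000459). The lowest levels of both genes were thus in the IWR1 route, although ITGB3 under BLSE without SOX17 was higher still, at 48.7 and 70.2 TPM. PDPN, a surface protein by which germ cells can be isolated, was not called at 12 and 24 h and was lower at 48 h, 243 and 351 TPM against 648 and 685 TPM (−1.19 ± 0.13, adjusted p = 1.04e-08). That change of the difference over time passed its own test (−0.92, adjusted p = 0.0017). KIT, the SCF receptor, was listed at 0 TPM in every library at 12 h and reached 1.01 and 1.44 TPM with SOX17 at 48 h against 0.18 and 0.08 TPM with IWR1. The count at 48 h was between 7 and 10 over the alternatives other than the fit to the compared libraries alone. It was lowest without replicate 2 of the SOX17 route, where the calls of ITGB3, KIT and TCL1A were lost (adjusted p = 0.0105, 0.0155 and 0.0925).

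Core and primed pluripotency genes were higher with IWR1 at 12 and 24 h, and fewer of them were called at 48 h. Of 15 genes tested, 7 were higher and 1 lower at 12 h, 9 and 0 at 24 h, and 3 and 1 at 48 h, with a list median of 0.84, 0.86 and 0.30. DNMT3B, a de novo DNA methyltransferase, stood at 57.1 and 61.9 TPM at 12 h, 69.2 and 83.97 TPM at 24 h and 18.5 and 46.01 TPM at 48 h with IWR1. In the SOX17 route it was at 9.36 and 8.11 TPM at 12 h, 7.05 and 5.58 TPM at 24 h and 5.43 and 7.36 TPM at 48 h. Both starting cells held about the IWR1 level (59.4 and 54.03 TPM in the pre-treated cells and 59.05 and 61.7 TPM in cjESCs). The routes did not overlap at any time, and the 48 h libraries with IWR1 lay far apart from each other. The difference was 2.64, 3.41 and 2.05 at 12, 24 and 48 h (SE 0.26, adjusted p of at most 1.39e-07). TDGF1, a co-receptor of NODAL, was higher with IWR1 by 1.19 at 12 h (adjusted p = 1.95e-06) and differed by 0.11 at 48 h (adjusted p = 0.661). This decline of the difference passed the test (−1.07, adjusted p = 0.00467). PRDM14, a repressor that guards pluripotency, stood at 63.7 and 99.7 TPM against 25.2 and 27.5 TPM at 24 h (1.56, adjusted p = 5.36e-06) and at 7.53 and 17.01 TPM against 9.92 and 8.26 TPM at 48 h (0.30, adjusted p = 0.364).

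POU5F1 and NANOG, the central pluripotency factors, were high in both routes. POU5F1 stood between 5033 and 5779 TPM over the 6 libraries with IWR1 and between 3255 and 5098 TPM with SOX17. It was called higher with IWR1 only at 12 h of the 3 times (0.58 ± 0.10, adjusted p = 1.79e-05). NANOG stood between 242 and 694 TPM with IWR1 and between 270.2 and 504 TPM with SOX17. It passed at no time (0.41, 0.58 and −0.18, adjusted p = 0.0871, 0.0128 and 0.458). Under BLSE alone at 48 h both were far lower, 1608 and 1376 TPM for POU5F1 and 31.5 and 22.6 TPM for NANOG. SALL4, a zinc-finger factor of stem and germ cells, was called lower with IWR1 at 48 h (−0.93 ± 0.13, adjusted p = 1.32e-06).

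Genes of the naive state split by time. Of 9 tested, 2 were higher and 1 lower with IWR1 at 12 h, 1 and 1 at 24 h, and 0 and 4 at 48 h. KLF4, a Krüppel-like factor, stood at 59.7 and 69.9 TPM at 12 h, 41.9 and 56.7 TPM at 24 h and 9.41 and 14.5 TPM at 48 h with IWR1. The libraries with SOX17 held 46.1 and 41.6 TPM at 12 h, 31.9 and 41.8 TPM at 24 h and 84.7 and 87.5 TPM at 48 h. The routes were near each other at 12 and 24 h, and at 48 h the SOX17 libraries were the highest and the IWR1 libraries the lowest of the 12. The difference went from 0.55 (adjusted p = 0.0386) at 12 h to −2.78 ± 0.20 at 48 h (adjusted p = 2.71e-13), and the change passed the test (−3.33, adjusted p = 5.89e-10). KLF5 was lower with IWR1 at all times (−1.25, −1.46 and −2.21, adjusted p of at most 8.51e-07), at 23.1 and 27.3 TPM against 121 and 119.7 TPM at 48 h. NR5A2, an orphan nuclear receptor, was higher with IWR1 at 24 h, 10.1 and 13.8 TPM against 2.16 and 1.89 TPM (2.09, adjusted p = 1.09e-06), and low in both routes by 48 h. Without replicate 1 of the IWR1 route at 48 h, 2 naive genes were called lower in place of 4, with TFCP2L1 and SUSD2 lost (adjusted p = 0.0239 and 0.0182).

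WNT ligands differed gene by gene and in both directions, by some of the largest amounts in the comparison. RSPO3, a secreted R-spondin that raises WNT reception, had the largest fall at 24 and 48 h. It stood at 3.48 and 3.43 TPM at 12 h, 1.32 and 1.71 TPM at 24 h and 4.14 and 2.46 TPM at 48 h with IWR1. With SOX17 it stood at 102 and 98.1 TPM at 12 h, 127 and 169 TPM at 24 h and 249.8 and 268 TPM at 48 h. The lowest library with SOX17, at 98.1 TPM, lay far above the highest with IWR1, at 4.14 TPM. The starting cells of the IWR1 route held 12.2 and 28.7 TPM and those of the SOX17 route 5.28 and 2.33 TPM. The difference was −4.5 ± 0.37, −5.87 ± 0.37 and −5.95 ± 0.37 (adjusted p of at most 2.49e-11), and under BLSE alone at 48 h RSPO3 was at 16.7 and 19.3 TPM. WNT3A, a canonical ligand of the late streak, was lower with IWR1 at all times. It stood at 10.3 and 6.57 TPM at 12 h, 6.09 and 6.01 TPM at 24 h and 10.2 and 6.98 TPM at 48 h with IWR1. The SOX17 route held 49.1 and 56.3 TPM at 12 h, 93.9 and 78.8 TPM at 24 h and 70.2 and 76.9 TPM at 48 h (−2.54, −3.63 and −2.98, adjusted p of at most 2.15e-07).

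WNT8A, another canonical ligand, had the reverse pattern. It stood at 33.2 and 27.8 TPM at 12 h, 92.8 and 77.2 TPM at 24 h and 263 and 298 TPM at 48 h with IWR1. Under SOX17 + BLSE it was at 7.77 and 5.45 TPM at 12 h, 38.02 and 17.8 TPM at 24 h and 17.1 and 31.2 TPM at 48 h. The pre-treated cells held 1.67 and 1.01 TPM. The IWR1 libraries were higher at each later time and the SOX17 libraries were not, and the groups did not overlap within any time. The difference was 2.06, 1.66 and 3.54 (SE 0.41, adjusted p = 0.000202, 0.00246 and 1.81e-08). The calls at 12 and 24 h were lost with a pseudocount of 0.1 (adjusted p = 0.0565 and 0.159). That at 24 h was also lost without either IWR1 library or replicate 2 of the SOX17 route (adjusted p = 0.0366, 0.0124 and 0.108). Of 10 WNT ligands and agonists tested, 1 was higher and 4 lower with IWR1 at 12 and at 24 h, and 3 were higher and 5 lower at 48 h, with a median of −0.68, −0.63 and −0.76. At 48 h 3 in place of 5 were called lower without replicate 1 of the IWR1 route or replicate 2 of the SOX17 route, and 1 in place of 3 higher without replicate 2 of the IWR1 route. WNT2, a ligand of mesoderm, was lower at all times but reached at most 7.1 TPM in any library of the routes.

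Receptors and secreted inhibitors of WNT were called higher with IWR1 more often than lower. Of 20 tested, 6 were higher and 1 lower at 12 h, 8 and 2 at 24 h, and 4 and 1 at 48 h, with medians of 0.20, 0.32 and 0.45. The count of higher genes was 3 at 12 h without replicate 1 of the SOX17 route and 4 at 24 h and 2 at 48 h without replicate 2 of the IWR1 route. The median at 12 h lay between −0.06 and 0.41 over the alternatives. The receptor FZD5 stood at 92.2 and 74.5 TPM at 12 h, 98.99 and 117 TPM at 24 h and 48.4 and 108 TPM at 48 h with IWR1. In the SOX17 route it was at 28.8 and 25.99 TPM at 12 h, 31.9 and 25.5 TPM at 24 h and 20.4 and 21.3 TPM at 48 h. It was higher with IWR1 at each time (1.56, 1.88 and 1.75, adjusted p of at most 0.000342). At 48 h its IWR1 libraries differed more than 2-fold from each other, and the call was lost without replicate 2 (adjusted p = 0.0122). SFRP2, a decoy that binds WNT outside the cell, was higher by 0.98 at 24 h and 1.12 at 48 h (adjusted p = 3.13e-05 and 2.82e-06). WIF1, another WNT-binding inhibitor, was higher by 1.96 and 1.75 at 12 and 24 h (adjusted p = 4.61e-06 and 2.67e-05). LGR5, a receptor for R-spondins, was the 1 gene called lower at 48 h, 0.47 and 1.02 TPM against 6.07 and 5.74 TPM (−2.0, adjusted p = 4.69e-07), and its difference changed with time (−2.24, adjusted p = 0.000236).

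Feedback genes and targets of β-catenin were called lower with IWR1 more often than higher. Of 16 tested, 7 were lower and 1 higher at 12 h, 8 and 1 at 24 h, and 5 and 1 at 48 h, with medians of −0.80, −0.99 and −0.61. Before IWR1 was given, 6 of the 16 were already lower in the pre-treated cells than in cjESCs in DK20FA, and 0 were higher. Set against the starting cells of each route, the change to 48 h was higher under IWR1 for 4 (LEF1, SP5, CDX1 and MYC) and lower for 1 (APCDD1). LEF1, a partner of β-catenin on DNA, stood at 0.82 and 0.68 TPM at 12 h, 1.2 and 1.1 TPM at 24 h and 3.34 and 4.28 TPM at 48 h with IWR1. The libraries with SOX17 held 9.22 and 8.74 TPM at 12 h, 3.75 and 6.82 TPM at 24 h and 4.0 and 3.02 TPM at 48 h. It was lower at 12 h (−2.51 ± 0.28, adjusted p = 2.14e-08), differed by 0.09 ± 0.28 at 48 h (adjusted p = 0.836). The change passed the test (2.61, adjusted p = 5.18e-05), while BLSE alone held 25.7 and 37.02 TPM at 48 h. APCDD1, a feedback inhibitor at the membrane, was lower at all times, 30.8 and 33.2 TPM against 175 and 175 TPM at 48 h (−1.46, −2.4 and −2.41, adjusted p of at most 1.04e-07). RNF43, a ubiquitin ligase that removes WNT receptors, was lower at 24 and 48 h (−1.87 and −1.59, adjusted p = 1.99e-06 and 2.03e-05). AXIN2, the most widely used feedback gene, was between 5.32 and 10.1 TPM with IWR1 and between 5.57 and 9.92 TPM with SOX17. It passed at no time (0.09, −0.32 and −0.27, adjusted p of at least 0.51). MYC was higher with IWR1 at all times, 252 and 295 TPM against 142 and 134 TPM at 48 h (1.05, 1.21 and 0.98, adjusted p of at most 1.96e-06). Without replicate 2 of the IWR1 route at 12 h, 3 genes were called lower in place of 7. SP5, NKD1, RNF43 and TNFRSF19 were lost (adjusted p between 0.0192 for RNF43 and 0.546 for SP5). These 2 libraries differed in SP5, an early target of WNT, at 7.44 and 0.63 TPM, against 11.6 and 11.1 TPM with SOX17. At 24 h 5 were called lower in place of 8 without replicate 2 of the SOX17 route, and at 48 h 3 in place of 5 without replicate 1 of the IWR1 route.

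**Figure D3:**
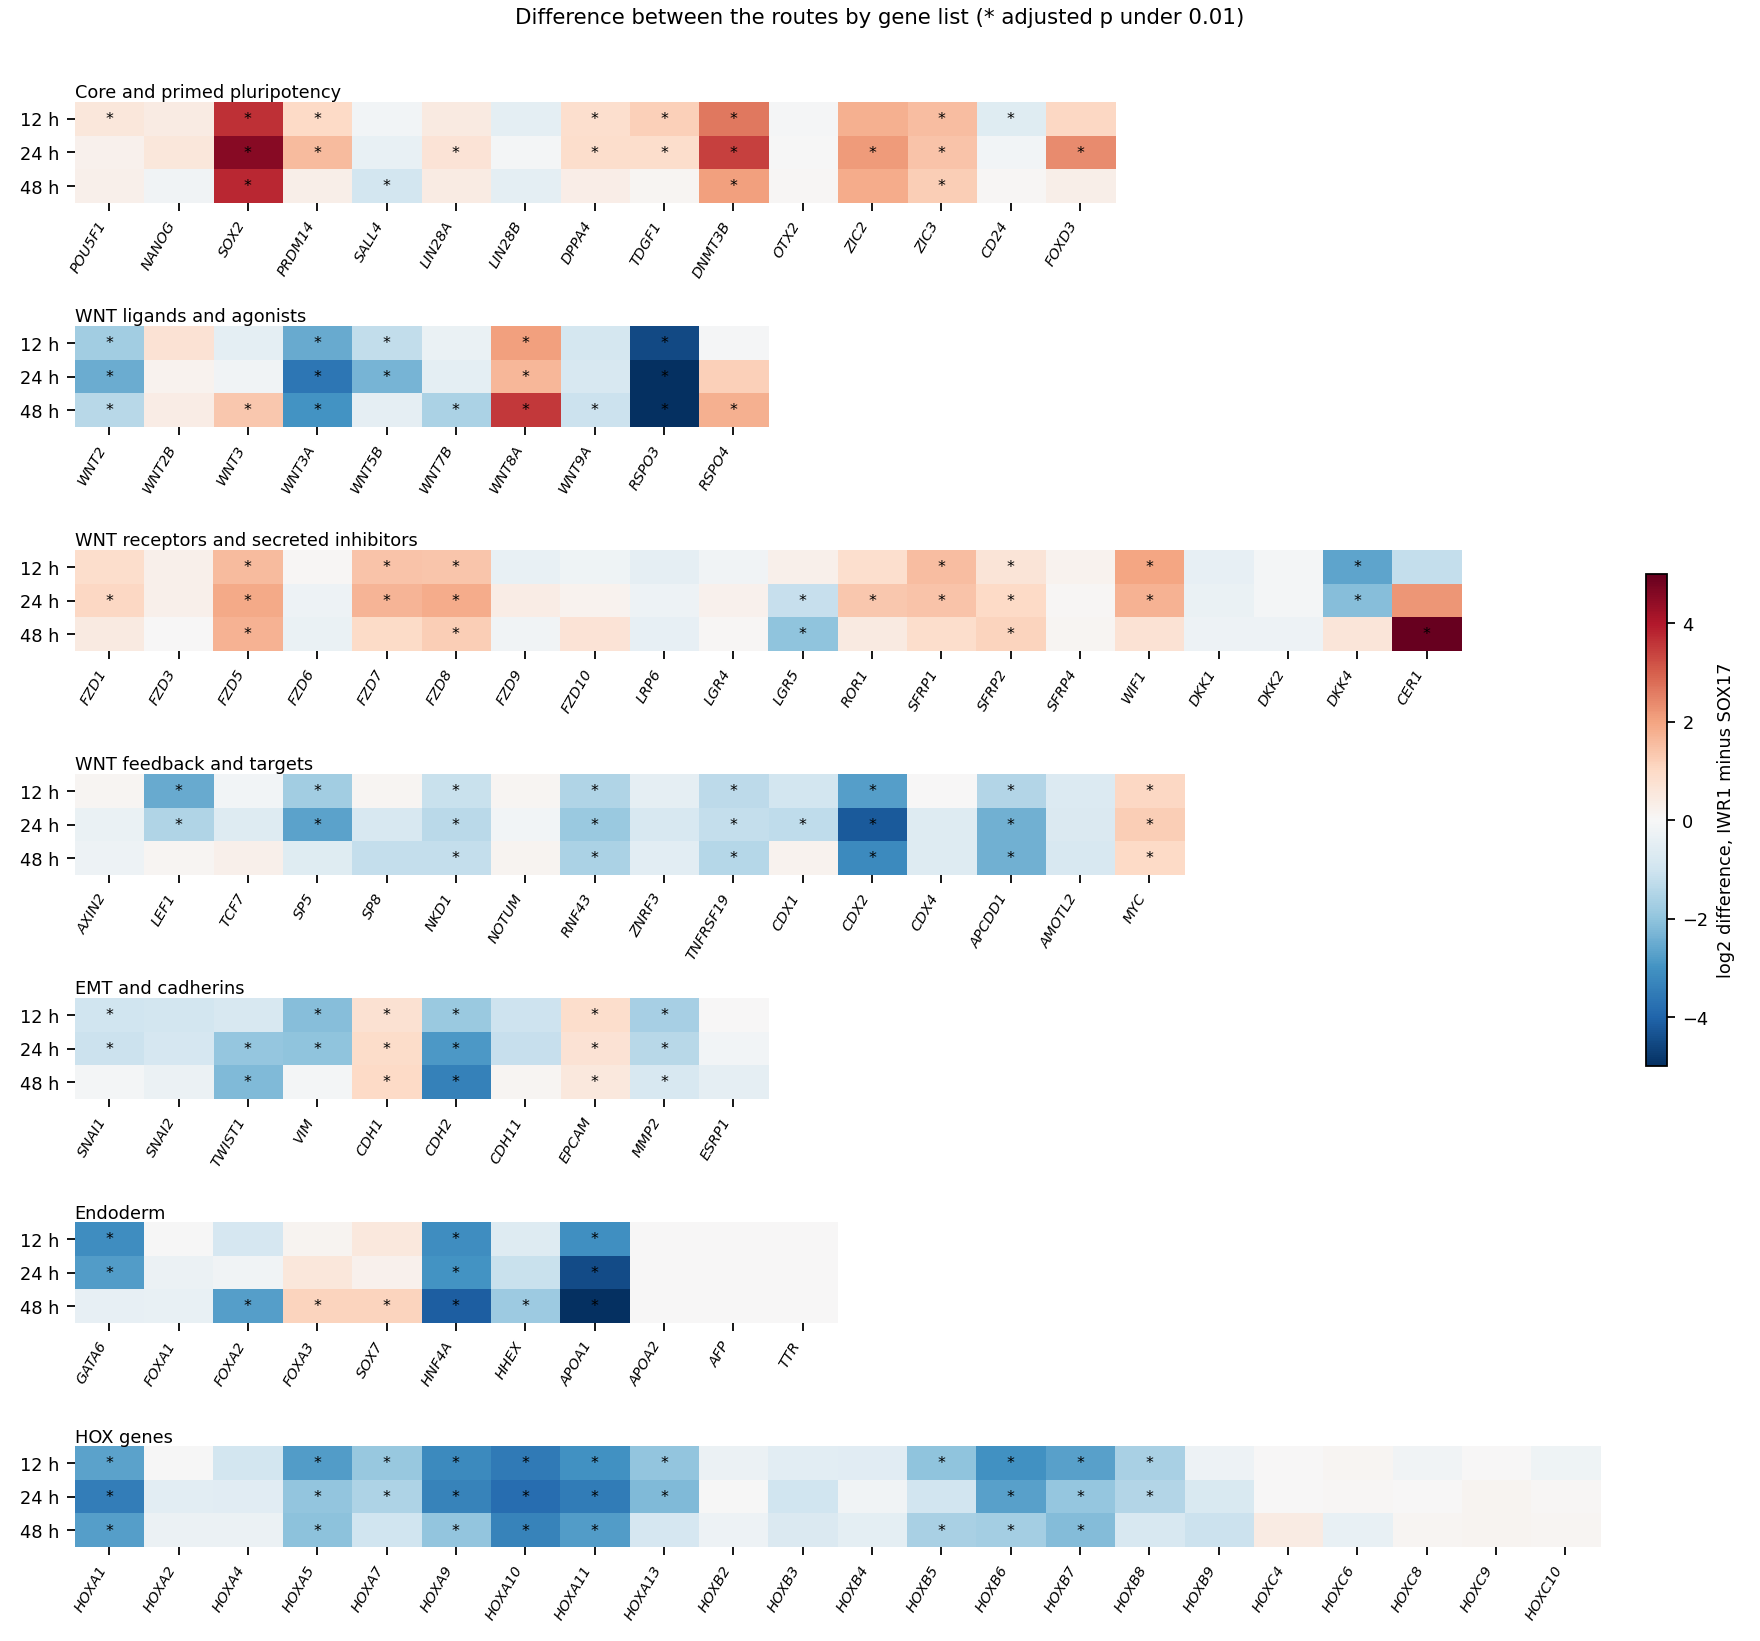
Difference between the routes for the tested genes of 7 lists at 12, 24 and 48 h, as log2 of IWR1 minus SOX17, red where higher with IWR1 and blue where lower, with differences beyond 5 in the darkest shade. An asterisk marks an adjusted p under 0.01 (limma). Pluripotency genes are mostly red at 12 and 24 h, and the HOX rows hold 11, 10 and 8 called genes, all of them blue.

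Genes of the primitive streak moved in different directions at 12 and 24 h, and more were called higher than lower with IWR1 at 48 h. Of 13 tested, 2 were higher and 3 lower at 12 h and again at 24 h, and 6 were higher and 2 lower at 48 h, where the list median was 1.27. The 2 lower at 48 h were GDF3, at a mean of 314 against 501 TPM, and APLNR, at 22.7 against 66.5 TPM. APLNR was called lower at all 3 times, though its 48 h call was lost with a pseudocount of 0.1. Without replicate 1 of the SOX17 route at 48 h 3 were called higher in place of 6. NODAL, the TGFβ ligand that patterns the streak, stood at 326 and 120.1 TPM at 12 h, 195 and 179 TPM at 24 h and 313 and 307 TPM at 48 h with IWR1. With SOX17 it stood at 100.1 and 84.8 TPM at 12 h, 132 and 113 TPM at 24 h and 11.7 and 19.6 TPM at 48 h. At 48 h the SOX17 libraries held the lowest levels of the 12, while those with IWR1 were among the highest, and BLSE alone was at 26.8 and 29.3 TPM. NODAL did not pass at 12 h (1.09, adjusted p = 0.045) or 24 h (0.61, adjusted p = 0.317). It was 19.8-fold higher with IWR1 at 48 h (4.26 ± 0.40, adjusted p = 2.83e-10). The difference changed with time (3.17, adjusted p = 0.0004). CER1, a secreted antagonist of NODAL and WNT, stood at 5.23 and 18.97 TPM at 12 h, 8.64 and 9.43 TPM at 24 h and 26.9 and 52.5 TPM at 48 h with IWR1. The SOX17 route held 25.4 and 24.3 TPM at 12 h, 1.3 and 1.04 TPM at 24 h and 0.35 and 0 TPM at 48 h. At 12 h the SOX17 libraries were above those with IWR1, at 24 h both were below, and at 48 h 1 of them was listed at 0. The difference at 48 h was 5.05 ± 0.93 (adjusted p = 6.46e-05), with a change from 12 h of 6.27 (adjusted p = 0.00248), the largest among the genes called for it.

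EOMES and MIXL1, streak transcription factors, were not called at 12 or 24 h and were higher with IWR1 at 48 h. EOMES stood at 25.6 and 34.3 TPM against 3.22 and 5.41 TPM (2.56 ± 0.54, adjusted p = 0.000383). MIXL1 stood at 68.3 and 78.8 TPM against 4.36 and 10.04 TPM (3.27 ± 0.67, adjusted p = 0.000258). Both calls were lost without replicate 1 of the SOX17 route (adjusted p = 0.0134 and 0.0141). FOXH1, the DNA-binding partner of the SMADs that answer NODAL, was higher with IWR1 at all times (1.46, 1.33 and 1.92, adjusted p of at most 5.96e-07). FGF8, a ligand of the streak, was higher by 3.72 at 48 h (adjusted p = 2.18e-07), with 39.97 and 36.5 TPM against 1.25 and 2.92 TPM. TBXT, the T-box factor of the streak, stood at 216 and 71.6 TPM at 12 h, 152 and 123 TPM at 24 h and 149 and 219.9 TPM at 48 h with IWR1. Under SOX17 + BLSE it was at 361 and 316 TPM at 12 h, 491 and 431 TPM at 24 h and 179 and 213 TPM at 48 h. Both IWR1 libraries were below both SOX17 libraries at 12 and 24 h, and the groups overlapped at 48 h. The difference was −1.43 at 12 h, −1.75 at 24 h and −0.11 at 48 h (adjusted p = 0.00269, 0.000323 and 0.854). Its change did not pass the test (1.32, adjusted p = 0.126). Without replicate 2 of the IWR1 route at 12 h, the calls of TBXT and EVX1 there were lost (adjusted p = 0.314 and 0.152). They were also lost without replicate 1 of the SOX17 route (adjusted p = 0.0354 and 0.0117), and that of TBXT without its replicate 2 (adjusted p = 0.0126). Without replicate 2 of the IWR1 route at 24 h the call of TBXT was lost (adjusted p = 0.0107). The libraries of the IWR1 route at 12 h stand far apart in this group, TBXT at 216 and 71.6 TPM, NODAL at 326 and 120.1 TPM and EVX1 at 37.9 and 11.6 TPM.

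**Figure D4:**
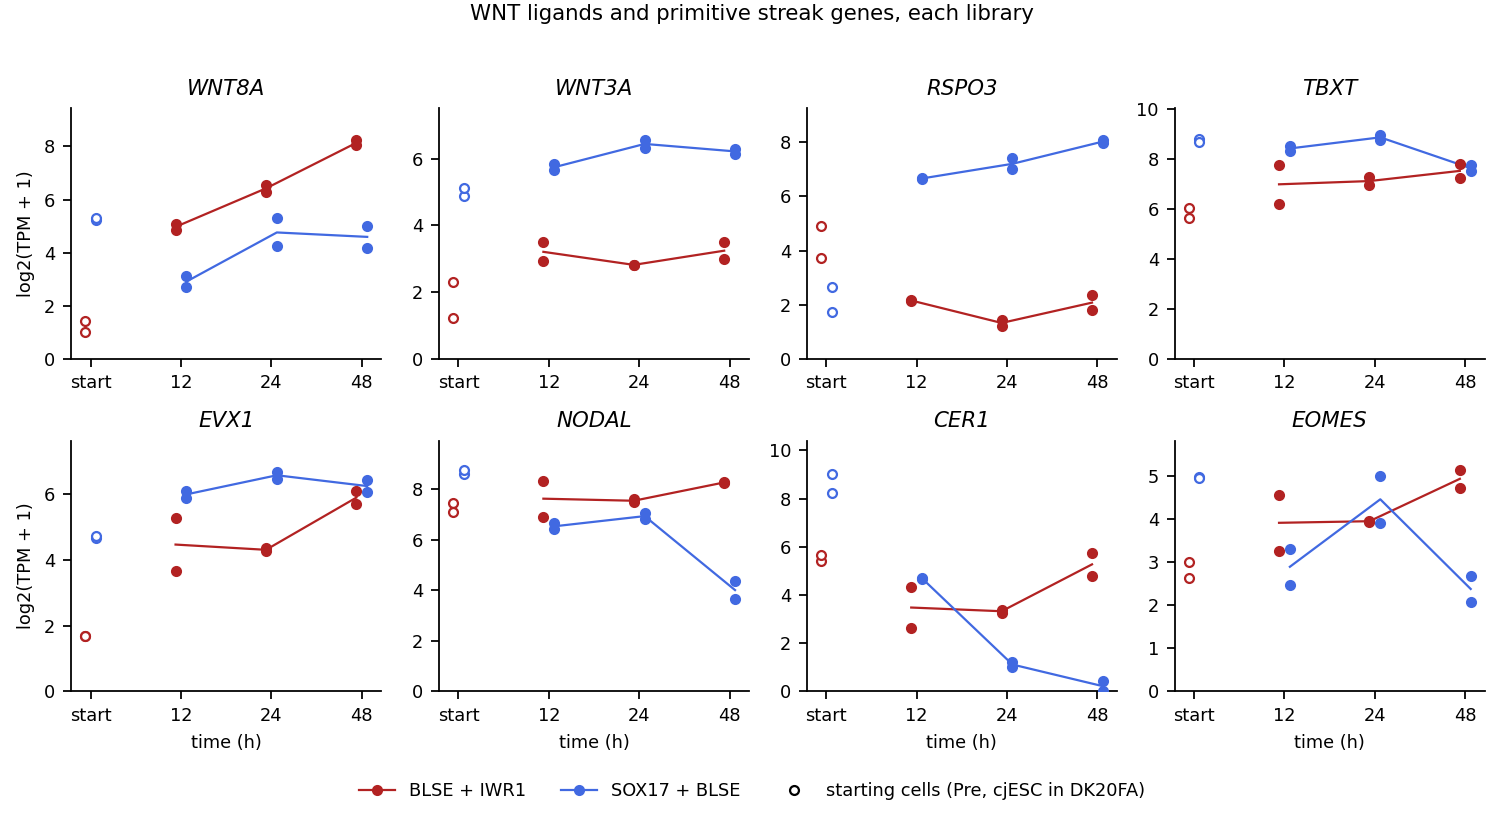
Level of WNT ligands, streak genes and the NODAL antagonist CER1 in each library as log2(TPM + 1) against the time of induction in h (evenly spaced, not to scale), red for BLSE + IWR1 and blue for SOX17 + BLSE. Points are single libraries, lines join the means of 2, and open points are the starting cells. WNT8A and NODAL are higher with IWR1 at 48 h, RSPO3 and WNT3A are higher with SOX17 at every time, and the TBXT points of the routes overlap at 48 h.

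The epithelial genes CDH1 and EPCAM were called higher with IWR1, and some mesenchymal genes lower. CDH2 and MMP2, a matrix protease, were called lower at all 3 times, VIM and SNAI1 at 12 and 24 h and TWIST1 at 24 and 48 h, while SNAI2 and CDH11 were called at no time. The 12 h call of SNAI1 was lost without replicate 2 of the IWR1 route or replicate 1 of the SOX17 route (adjusted p = 0.01005 and 0.0146). Of 10 genes of the epithelial to mesenchymal transition (EMT) tested, 2 were higher at each time and 4, 5 and 3 were lower at 12, 24 and 48 h. VIM, a filament protein of mesenchymal cells, stood at 262 and 239 TPM at 12 h, 145 and 171 TPM at 24 h and 299 and 315 TPM at 48 h with IWR1. In the SOX17 route it was at 1109 and 1087 TPM at 12 h, 609 and 686 TPM at 24 h and 363 and 290.0 TPM at 48 h. The routes were apart at 12 and 24 h (−2.13 and −2.03, adjusted p = 1.18e-10 and 3.14e-10) and overlapped at 48 h (−0.08, adjusted p = 0.79). The difference changed with time (2.05, adjusted p = 4.04e-06), while BLSE alone held 1492 and 1633 TPM at 48 h. CDH2, N-cadherin, ran the other way over time, at 4.05 and 2.29 TPM at 12 h, 1.62 and 1.84 TPM at 24 h and 4.45 and 4.87 TPM at 48 h with IWR1 and 13.4 and 14.3 TPM at 12 h, 21.3 and 17.3 TPM at 24 h and 51.5 and 63.95 TPM at 48 h with SOX17. Its difference widened from −1.86 ± 0.19 at 12 h to −3.37 ± 0.19 at 48 h (adjusted p = 4.31e-09 and 2.25e-15). This change passed the test (−1.5, adjusted p = 0.000466), and BLSE alone was at 3.78 and 4.29 TPM, near the level with IWR1. EPCAM was 1074 and 1053 TPM against 691 and 802 TPM at 48 h (0.51, adjusted p = 0.000779). CDH1, E-cadherin, was 198 and 263 TPM against 100.4 and 132 TPM (0.98, adjusted p = 9.07e-05). Both calls were lost without replicate 1 of the SOX17 route (adjusted p = 0.0354 and 0.0101).

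Fibroblast markers differed in both directions. Of 11 tested, 5 were lower and 2 higher with IWR1 at 12 h, 4 and 2 at 24 h and 2 and 1 at 48 h. The medians of these markers were 0.29, −0.24 and −0.24. Their summed level was 935 and 722 TPM with IWR1 against 1391 and 1518 TPM with SOX17 at 12 h, and 1765 and 2239 TPM against 1859 and 1756 TPM at 48 h. DCN, the proteoglycan decorin, was at 17.5 and 17.9 TPM against 90.6 and 110.0 TPM at 12 h (−2.43, adjusted p = 6.56e-05). COL3A1, a collagen that marks fibroblasts, reached at most 7.21 TPM with IWR1 and 4.0 TPM with SOX17. POSTN was at 0 in both libraries with SOX17 at 24 h, and no other marker was at 0 in both libraries of any of these groups. Their part in the difference of the EMT genes was not tested, and in bulk samples fewer cells of a type and less RNA per cell cannot be told apart.

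A few endoderm genes were far higher in the SOX17 route. The 11 genes of the list summed to between 56.3 and 132 TPM in the libraries with IWR1 and between 263 and 565 TPM with SOX17. APOA1 and GATA6 together made up most of the sum with SOX17 at each time. APOA2, AFP and TTR, products of mature liver and yolk sac, were at 0 in every library of the routes. With IWR1, 3 genes of the list were lower at 12 and 24 h, and 4 lower and 2 higher (FOXA3 and SOX7) at 48 h. The medians were −0.026, −0.161 and −0.365. They include APOA2, AFP and TTR, whose difference was fixed at 0. APOA1, an apolipoprotein, stood at 11.02 and 12.2 TPM at 12 h, 5.34 and 8.21 TPM at 24 h and 3.41 and 8.72 TPM at 48 h with IWR1. The libraries with SOX17 held 85.1 and 129.8 TPM at 12 h, 142 and 206 TPM at 24 h and 305 and 392 TPM at 48 h. Its SOX17 libraries were higher at each later time. The difference widened from −3.08 ± 0.42 to −5.73 ± 0.42 (adjusted p = 8.44e-07 and 5.83e-13; change −2.65, adjusted p = 0.00467). HNF4A, a nuclear receptor of endoderm, was 0.47 and 0.78 TPM against 26.1 and 27.9 TPM at 48 h (−3.1, −2.97 and −4.11 at the 3 times, adjusted p of at most 3.26e-08), and BLSE alone held 1.49 and 1.56 TPM. FOXA2, a pioneer factor of definitive endoderm, was called at 48 h, 1.83 and 4.16 TPM against 27.4 and 22.6 TPM (−2.76 ± 0.42, adjusted p = 3.92e-06), but not with a pseudocount of 0.1 (adjusted p = 0.0114). GATA6 stood at 13.5 and 13.2 TPM at 12 h, 14.7 and 12.8 TPM at 24 h and 57.3 and 74.5 TPM at 48 h with IWR1. With SOX17 it stood at 123 and 119.8 TPM at 12 h, 110.2 and 91.7 TPM at 24 h and 92.1 and 84.3 TPM at 48 h. It was lower with IWR1 at 12 and 24 h (−3.09 and −2.79, adjusted p = 7.39e-09 and 5.44e-08), not called at 48 h (−0.43, adjusted p = 0.354). The change passed the test (2.67, adjusted p = 0.000316). The starting cells differed in it in the same direction, 17.6 and 15.1 TPM before IWR1 and 122 and 154 TPM before SOX17 (−3.0, adjusted p = 1.15e-08).

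Mesoderm and vascular genes were split. Of 17 tested, 2 were higher and 6 lower with IWR1 at 12 h, 0 and 5 at 24 h, and 3 and 3 at 48 h, with medians of −0.40, −0.59 and −0.56. PDGFRA, a growth factor receptor of mesoderm and primitive endoderm, was lower at all times, 5.59 and 14.2 TPM against 112 and 129 TPM at 48 h (−2.94, −2.81 and −3.6, adjusted p of at most 1.37e-06). HAND1, a mesoderm and amnion factor, stood at 305 and 220.5 TPM at 12 h, 695 and 513 TPM at 24 h and 1176 and 1186 TPM at 48 h with IWR1. The SOX17 route held 680.1 and 611 TPM at 12 h, 1023 and 794 TPM at 24 h and 1048 and 991 TPM at 48 h. It was high in every library and higher at 48 h than at 12 h in both routes. Its call at 12 h (−1.31, adjusted p = 0.00202) was lost without replicate 2 of the IWR1 route or either SOX17 library (adjusted p = 0.0616, 0.0286 and 0.0108). At 48 h it differed by 0.21 (adjusted p = 0.657), with 1769.6 and 1729 TPM in BLSE alone. ETV2, which opens the blood vessel program, was 8.32 and 7.47 TPM against 1.79 and 0.30 TPM at 48 h (2.22, adjusted p = 1.31e-05). Without replicate 2 of the IWR1 route at 12 h, 2 genes of the list were called lower in place of 6, and without replicate 1 at 24 h 2 in place of 5.

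HOX genes, which set position along the body axis, were lower with IWR1 wherever they were called. Of 22 tested, 11, 10 and 8 were lower at 12, 24 and 48 h and 0 were higher, with medians of −1.26, −0.97 and −0.82. The sum of the 25 HOX genes in the table was between 12.4 and 33.3 TPM in the libraries with IWR1 and between 120 and 172 TPM with SOX17. HOXA10, from the posterior part of its cluster, stood at 1.35 and 1.33 TPM at 12 h, 1.36 and 0.97 TPM at 24 h and 2.36 and 2.15 TPM at 48 h with IWR1. Under SOX17 + BLSE it was at 25.6 and 26.8 TPM at 12 h, 28.7 and 29.1 TPM at 24 h and 36.4 and 28.6 TPM at 48 h. Its starting cells held 1.59 and 2.04 TPM before IWR1 and 1.99 and 3.2 TPM before SOX17. The difference was −3.54 ± 0.24, −3.79 ± 0.24 and −3.35 ± 0.24 (adjusted p of at most 3.52e-13). BLSE alone held more than either route at 48 h, 84.98 and 102 TPM of HOXA10 and 76.6 and 72.7 TPM of HOXB6. The routes held 3.7 and 2.63 TPM of HOXB6 with IWR1 and 19.4 and 7.98 TPM with SOX17 at that time. CDX2, a caudal factor that acts on HOX genes, was lower with IWR1 at all times. It stood at 3.32 and 0.15 TPM at 12 h, 0.86 and 2.23 TPM at 24 h and 6.98 and 4.09 TPM at 48 h with IWR1. In the SOX17 route it was at 16.1 and 12.1 TPM at 12 h, 51.97 and 38.1 TPM at 24 h and 66.9 and 47.7 TPM at 48 h (−2.74, −4.21 and −3.17, adjusted p of at most 4.86e-06). The HOX count at 24 h was 7 in place of 10 without replicate 2 of the IWR1 route, where HOXA7, HOXB7 and HOXB8 were lost (adjusted p = 0.116, 0.0209 and 0.0252).

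Of 13 genes of the retinoic acid pathway tested, 2 were higher and 3 lower with IWR1 at 12 h, 1 and 3 at 24 h, and 3 and 2 at 48 h. RARG, a retinoic acid receptor, was higher with IWR1 at all times, 66.6 and 99.02 TPM against 24.9 and 22.98 TPM at 48 h (1.4, 1.42 and 1.72, adjusted p of at most 1.82e-06). CRABP2, a carrier of retinoic acid to its receptor, stood at 172 and 156 TPM at 12 h, 199.9 and 190.0 TPM at 24 h and 896 and 844 TPM at 48 h with IWR1. The libraries with SOX17 held 479.9 and 669 TPM at 12 h, 492 and 517 TPM at 24 h and 579 and 543 TPM at 48 h. The IWR1 libraries were under those with SOX17 at 12 and 24 h and above them at 48 h (−1.78, −1.37 and 0.63, adjusted p = 0.000267, 0.0047 and 0.188). The change of the difference passed the test (2.42, adjusted p = 0.00239). The call at 12 h was lost without replicate 2 of the SOX17 route (adjusted p = 0.0114). That at 24 h was lost without any 1 library (adjusted p between 0.0291 and 0.038), and at 48 h CRABP2 was not called.

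Few readouts of BMP, which both routes received, were called, and in both directions. Of 14 BMP targets, 2 were higher and 3 lower with IWR1 at 12 h, 1 and 3 at 24 h and 2 and 2 at 48 h. Of all genes, 5.61%, 5.31% and 8.06% were called higher at these times and 9.19%, 8.35% and 12.9% lower. With a pseudocount of 0.1, 0 of the targets were called lower at 12 and at 24 h. ID1, a direct target, stood between 907 and 1189.8 TPM with IWR1 and between 777 and 1004 TPM with SOX17. It passed at no time (0.36, 0.05 and 0.16, adjusted p = 0.156, 0.896 and 0.556). ID3 was higher with IWR1 at all times (1.07, 1.06 and 1.06, adjusted p of at most 1.58e-05). DLX3, a homeobox target of BMP, was lower at 48 h, 6.23 and 4.15 TPM against 42.7 and 40.9 TPM (−2.81, adjusted p = 1.26e-06). NOG, a BMP antagonist, was called lower with IWR1 at 12 h (−1.72, adjusted p = 0.000462) and higher at 48 h (1.3, adjusted p = 0.00531). The change passed the test (3.02, adjusted p = 0.000213). The call at 12 h was lost without replicate 2 of the IWR1 route (adjusted p = 0.0187). That at 48 h was lost without either IWR1 library or replicate 2 of the SOX17 route (adjusted p = 0.0386, 0.0194 and 0.132).

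Genes associated with amnion, a BMP-driven tissue that shares precursors with germ cells, had 1 of 12 lower at 12 h, and 1 higher and 2 lower at 48 h. TFAP2A, an early amnion factor, stood at 9.55 and 9.57 TPM at 12 h, 19.4 and 16.6 TPM at 24 h and 39.02 and 37.8 TPM at 48 h with IWR1. With SOX17 it stood at 7.21 and 7.51 TPM at 12 h, 17.7 and 14.97 TPM at 24 h and 44.2 and 43.2 TPM at 48 h. Both routes held more of it at each later time, and it was called at no time (0.34, 0.13 and −0.18, adjusted p of at least 0.434). GATA3 was also called at no time (−0.09, −0.26 and −0.41, adjusted p of at least 0.285). GATA2 was called at 48 h, 149.9 and 169 TPM against 347 and 354 TPM (−1.14, adjusted p = 0.00797), a call that was lost without any 1 of the 4 libraries (adjusted p between 0.0228 and 0.0577) and after median-ratio scaling (adjusted p = 0.0133).

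LIF and SCF were also given in both routes. Of 10 genes of LIF and STAT3 signaling, LIFR, the LIF receptor, was lower with IWR1 at all times, 2.71 and 7.61 TPM against 31.6 and 28.8 TPM at 48 h (−2.27, −1.89 and −2.46, adjusted p of at most 9.41e-07). PIM2, a kinase gene that STAT factors activate, differed by 0.12 at 12 h (adjusted p = 0.73) and was lower at 48 h, 29.6 and 42.4 TPM against 153 and 143 TPM (−2.03, adjusted p = 1.74e-09), with a change over time of −2.16 (adjusted p = 9.92e-06). The list had 0 higher and 1 lower at 12 h, 0 and 2 at 24 h and 1 and 4 at 48 h, and without either SOX17 library or replicate 1 of the IWR1 route 2 were called lower at 48 h. Of 17 genes of FGF signaling and ERK feedback, 1 was higher and 2 lower at 12 h, 3 and 0 at 24 h and 1 and 3 at 48 h.

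Dexamethasone was given in the SOX17 route only, so known targets of the glucocorticoid receptor were examined. Of 10 tested, 1 was higher and 0 lower with IWR1 at 12 and 24 h, and 1 was higher and 4 lower at 48 h. FKBP5, the target most used as a readout, stood between 67.8 and 107 TPM with IWR1 and between 55.2 and 78.4 TPM with SOX17. It was called at no time (0.21, 0.54 and 0.39, adjusted p of at least 0.0216). TAT, a liver enzyme gene under glucocorticoid control, stood at 1.31 and 1.11 TPM with IWR1 and 32.4 and 36.97 TPM with SOX17 at 48 h (−4.01 ± 0.38, adjusted p = 2.61e-10), and its difference grew with time (−3.0, adjusted p = 0.000356). BLSE alone, without dexamethasone and so also without SOX17 induction, held 0.18 and 0.65 TPM of it. CEBPD, KLF9 and TSC22D3 were the other 3 that were lower (−2.42, −1.12 and −1.1, adjusted p = 0.000227, 0.000788 and 0.00447). In the other direction, PDK4 was called higher with IWR1 at 48 h (1.83, adjusted p = 7.95e-06). HSD11B2 was called higher at 12 and 24 h (1.47 and 1.4, adjusted p = 0.00484 and 0.00773), and its 12 h call was lost without any 1 library. The list median at 48 h was 0.34. Without replicate 1 of the IWR1 route or replicate 2 of the SOX17 route the calls of KLF9 and TSC22D3 were lost (adjusted p = 0.0339 and 0.181 for the former library, 0.0145 and 0.0314 for the latter). That of TSC22D3 was also lost without replicate 1 of the SOX17 route (adjusted p = 0.029), and that of CEBPD without replicate 2 of the IWR1 route (adjusted p = 0.0208). The part of dexamethasone in these and all other differences was not tested.

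Neural genes and genes of the cell cycle were counted in the same way. Of 10 neural genes, 1 was higher and 0 lower with IWR1 at 12 h, 2 and 0 at 24 h and 3 and 1 at 48 h. POU3F2, a neural POU factor, stood at 0.96 and 1.32 TPM at 12 h, 5.44 and 3.66 TPM at 24 h and 10.4 and 12.8 TPM at 48 h with IWR1. The SOX17 route held 0.56 and 0.33 TPM at 12 h, 0.78 and 0.73 TPM at 24 h and 1.67 and 1.09 TPM at 48 h. Its difference grew from 0.57 (adjusted p = 0.0755) to 2.41 (adjusted p = 4.69e-10; change 1.84, adjusted p = 0.000373). EN2 was present at 48 h with SOX17, 5.25 and 11.3 TPM, and was listed at 0 in both libraries with IWR1 and in those of BLSE alone at that time. Of 11 cell cycle genes, 1 was higher and 1 lower at 12 h, and 1 lower at 24 h.

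Among the 8 largest rises and falls of each time, several genes outside the lists were DEGs at all 3 times. FOXJ1, the master regulator of motile cilia, stood at 145 and 151 TPM at 12 h, 122 and 154 TPM at 24 h and 59.6 and 68.3 TPM at 48 h with IWR1. Under SOX17 + BLSE it was at 20.5 and 20.2 TPM at 12 h, 9.82 and 16.3 TPM at 24 h and 9.12 and 5.18 TPM at 48 h. Both starting cells were high, 228 and 249 TPM and 289 and 219 TPM, and BLSE alone was lowest, at 2.65 and 1.55 TPM at 48 h. The difference was 2.81, 3.33 and 3.03 (SE 0.45, adjusted p of at most 1.14e-05). TEKT2, a protein of the ciliary axoneme, was higher with IWR1 by 2.98 at 12 h and 3.04 at 48 h (adjusted p = 1.52e-06 and 7.26e-07). CFAP126, another cilium gene, was higher by 3.83 at 24 h and 3.13 at 48 h (adjusted p = 2.02e-06 and 3.5e-05), where it was listed at 0 in both SOX17 libraries against 5.81 and 10.2 TPM. S100G, a calcium-binding protein, was 28.7 and 43.3 TPM against 0 and 0.88 TPM at 48 h (3.02, 2.78 and 4.73, adjusted p of at most 1.38e-06). NEFM, a neurofilament protein, was 540.4 and 520.3 TPM against 29.5 and 35.1 TPM (4.0, adjusted p = 2.24e-10). The other genes among the largest rises were VAT1L, RARRES2, CA11, LCK, CASQ1, POLR3G and LGALS7. Of these, VAT1L, CA11, LCK and CASQ1 were DEGs at all 3 times. LGALS7 at 24 h was called with 0 TPM in both SOX17 libraries but not without replicate 1 of the IWR1 route or either SOX17 library (adjusted p = 0.0537, 0.0238 and 0.0213).

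The largest falls included enzymes and secreted proteins. GATM, which makes the precursor of creatine, stood at 1.53 and 1.13 TPM at 12 h, 2.73 and 3.41 TPM at 24 h and 2.16 and 3.83 TPM at 48 h with IWR1. In the SOX17 route it was at 23.02 and 25.6 TPM at 12 h, 57.05 and 57.4 TPM at 24 h and 79.5 and 83.2 TPM at 48 h. The SOX17 libraries were higher at each later time (−3.45, −3.84 and −4.4, SE 0.24, adjusted p of at most 2e-13). NID2, a basement membrane protein, was 2.13 and 4.48 TPM against 85.8 and 105 TPM at 48 h, and its difference widened from −1.25 ± 0.23 to −4.53 ± 0.23 (adjusted p = 2.06e-16 at 48 h; change −3.28, adjusted p = 2.58e-08). BLSE alone held 8.96 and 7.18 TPM of NID2 and 8.17 and 7.78 TPM of GATM at 48 h, so the high levels of both were those of the SOX17 libraries. RNASE1, a secreted ribonuclease, was 5.62 and 2.38 TPM against 155 and 141 TPM at 48 h (−4.97 ± 0.49, adjusted p = 7.78e-10), while BLSE alone held 68.3 and 72.1 TPM. ADTRP and ELOVL7 were DEGs at all 3 times (−3.44, −3.01 and −3.83 and −3.35, −3.3 and −2.89). SCIN, an actin-severing protein, was among the 8 largest falls at 48 h (−4.18, adjusted p = 8.8e-11). CCL15 and PRR9 were called only at 48 h of the 3 times (−4.68 and −4.14, adjusted p = 2.77e-06 and 1.01e-07). RBP7 and EMP1 were among the 8 largest falls at 24 h (−3.92 and −3.78, adjusted p = 2.11e-12 and 2.27e-08).

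Whether the difference between the routes itself changed from 12 to 48 h was tested gene by gene, and 281 genes passed, 134 (1.20%) with a rise of the difference and 147 (1.31%) with a fall. Without any 1 of replicate 2 of the IWR1 route at 12 h, the SOX17 libraries at 12 h and the SOX17 libraries at 48 h, the count was 182, 156, 172, 162 and 150.0 in that order. The split turned with the library left out, with 209 rises and 112 falls without replicate 1 of the IWR1 route at 48 h and 72 and 182 without its replicate 2, and with 115 and 77 without replicate 1 at 12 h and 67 and 115 without its replicate 2. Of the 281, 93 were called at 12 h but not at 48 h, 147 at 48 h but not at 12 h, 25 at both with the same sign and 11 at both with opposite signs, and 5 at neither. NOG and TCL1B were among the 11, and the 48 h call of TCL1B was lost with a pseudocount of 0.1 (adjusted p = 0.197), after median-ratio scaling (adjusted p = 0.0131) and without replicate 1 of the IWR1 route or either SOX17 library (adjusted p = 0.129, 0.0315 and 0.0578). How the calls of the other 9 depend on single libraries was not tested. NGFR, a neurotrophin receptor, stood at 2.12 and 2.21 TPM at 12 h, 9.42 and 7.16 TPM at 24 h and 61.2 and 69.9 TPM at 48 h with IWR1. The libraries with SOX17 held 60.03 and 76.6 TPM at 12 h, 38.5 and 47.4 TPM at 24 h and 87.7 and 81.2 TPM at 48 h. The IWR1 libraries started far below and came close by 48 h. The difference went from −4.44 ± 0.28 to −0.36 ± 0.28 (change 4.08, adjusted p = 1.61e-08). MNX1, a homeobox factor, went from −3.99 to −1.14 (change 2.85, adjusted p = 0.00285). CRCT1 and CD40 joined CER1, NGFR and ESM1 among the 5 largest rises (4.75, 3.81 and 3.59 for CRCT1, CD40 and ESM1). The 5 largest falls were those of TCL1B (−3.61), IHH (−3.34), KLF4, NID2 and EN2 (−3.11). IHH, a hedgehog ligand of endoderm, stood at 22.6 and 13.3 TPM with SOX17 at 48 h and at 0.38 and 0.48 TPM with IWR1.

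**Figure D5:**
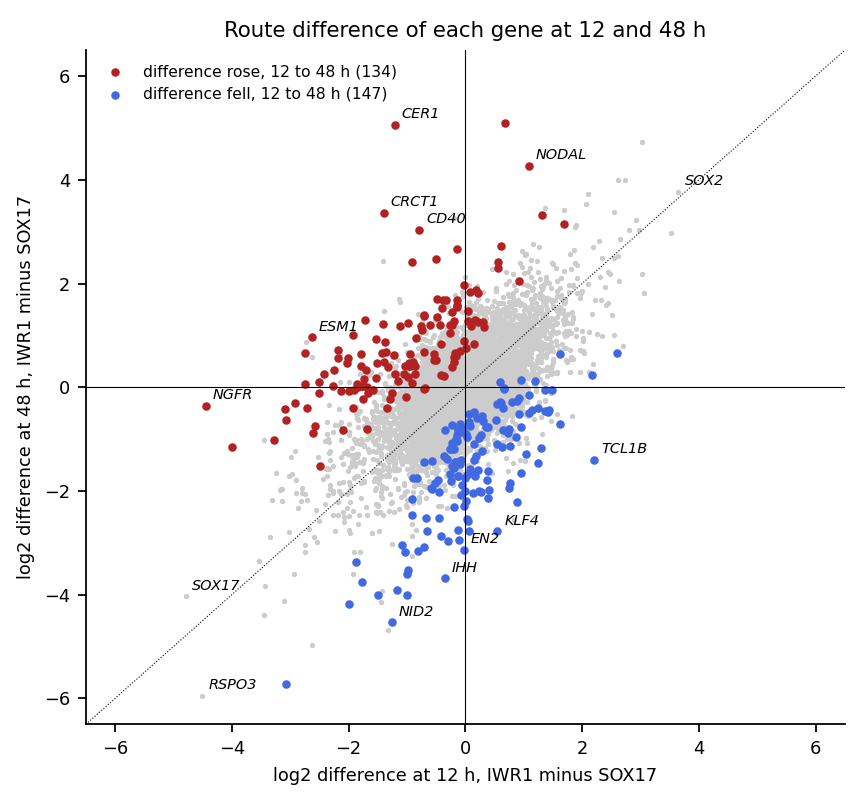
Difference between the routes at 12 h (horizontal axis) and at 48 h (vertical axis), each as log2 of IWR1 minus SOX17. The dotted line marks equal differences, red points are the 134 genes whose difference rose, blue points the 147 whose difference fell, and grey points the other genes. SOX17 and SOX2 lie near the dotted line, and CER1, NGFR and NODAL far above it.

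The routes start from different cells, which were sorted for the pluripotency surface marker TRA-1-60, while the cells at 12 to 48 h were not sorted. Libraries of the SOX17 route carry TG in their titles and the cjESCs in DK20FA do not. By title it is therefore not settled that these cjESCs were of the transgenic line. Pre-treated cells of the IWR1 route differed from cjESCs in DK20FA in 1281 genes, 678 higher (6.06%) and 603 lower (5.39%). Genes of WNT and the streak were among those lower in the pre-treated cells. WNT8A was at 1.67 and 1.01 TPM against 36.2 and 38.5 TPM (−4.05, adjusted p = 1.55e-09). MIXL1 was at 17.97 and 17.9 TPM against 353 and 326 TPM (−4.17, adjusted p = 1.48e-05), and 6 of 13 streak genes were lower and 0 higher. SOX17 was also lower before IWR1, 12.1 and 3.38 TPM against 27.6 and 36.2 TPM (−2.11, adjusted p = 8e-07), while NANOS3, PRDM1 and SOX2 were not called. Of 11 fibroblast markers, 9 were higher and 1 lower in the pre-treated cells, with a sum of 3571 and 6859 TPM against 1268 and 1837 TPM, and none was at 0 in both libraries of a group. COL3A1 was at 459 and 835 TPM before IWR1, 3.71 and 13.6 TPM before SOX17 and 7.21 and 5.71 TPM in the IWR1 route at 12 h. The cjESCs were kept on mouse feeder cells, and the part of such cells in this comparison was not tested. Without replicate 2 of the pre-treated cells 557 genes were called in place of 1281, and without replicate 1 of the cjESCs 791.

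Set against its starting cells, each route's change to 48 h differed in 1568 genes, 620 with a higher (5.54%) and 948 with a lower (8.47%) change under IWR1. This comparison carries the fibroblast difference of the starting cells and any difference between the cjESCs in DK20FA and the transgenic line. The split rested on single libraries, with 770.0 higher and 744 lower without replicate 1 of the IWR1 route at 48 h and 391 and 1131 without its replicate 2. Of the germ cell list 8 of 12 genes were lower and 0 higher, with differences of −1.92 for SOX17 and −3.82 for NANOS3 (adjusted p = 0.000521 and 9.75e-09). SOX2 was higher by 3.65 (adjusted p = 1.16e-08). Of 13 streak genes 8 were higher and 0 lower, WNT8A outside that list by 7.59 (adjusted p = 3.04e-12) and NODAL within it by 5.68 (adjusted p = 1.75e-09). RSPO3 was lower, with a difference of −8.06 (adjusted p = 1.28e-13). For the HOX genes 13 of 22 were lower and 0 higher, although 10 of the 22 were higher in the pre-treated cells than in cjESCs in DK20FA, and 8 of 11 fibroblast markers were lower and 1 higher in the same comparison.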

How the data were processed

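RNA of unsorted aggregates from 6 groups of 2 libraries was compared, beside the starting cells (Pre and cjESCs in DK20FA, 2 libraries each) and the transgenic line under BLSE alone. The authors deposited a table of TPM for 14812 genes in 54 libraries. Per the study's methods, these came from single-end reads of poly(A) libraries, aligned with STAR, filtered by mapping quality and quantified with RSEM. TPM keep no read totals, so the depth of a library is unknown and no count model was used.

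From these, log2(TPM + 1) was computed and 11197 genes at or above 1.5 in at least 1 library were kept. Limma 3.58.1 in R 4.3.3 was fitted with 1 mean for each of 27 conditions (27 residual degrees of freedom) and a trend of the variance with intensity, and p-values were adjusted by Benjamini-Hochberg. A gene was called at an adjusted p under 0.01, and a DEG also differed more than 4-fold with a mean log2 above 1.5. The groups came from the labels. Genes were named by rule: SOX17, PRDM1, NANOS3 and SOX2, members of 20 gene lists (333 entries, of which 283 were in the table and 263 tested), the 8 largest rises and falls among the DEGs of each time, the 5 largest of each sign among changes over time, and genes the study discusses. The members and lists were chosen with earlier results of these data known. No 2 libraries were identical. Alternatives changed the pseudocount, the filter, the scaling, the trend, the samples in the fit, a replicate block and the libraries kept. The other libraries entered the fit only.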

Additional observations from a re-analysis of the deposited data

Results flagged for a closer look

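The difference between the routes changed from 12 to 48 h, by the limma test of that change itself, for 281 genes. Among those called, the 5 largest rises were 6.27 for CER1, 4.75 for CRCT1, 4.08 for NGFR, 3.81 for CD40 and 3.59 for ESM1, as log2 of the difference at 48 h minus that at 12 h. The 5 largest falls were −3.61 for TCL1B, −3.34 for IHH, −3.33 for KLF4, −3.28 for NID2 and −3.11 for EN2. In CD40, a receptor of the TNF family, the IWR1 route held 4.79 and 3.61 TPM at 12 h and 19.3 and 28.5 TPM at 48 h, and the SOX17 route 7.91 and 7.9 TPM and 3.05 and 1.22 TPM. For ESM1, a secreted proteoglycan of endothelium, these were 4.83 and 2.03 TPM and 2.65 and 1.44 TPM against 35.2 and 17.6 TPM and 0.42 and 0.65 TPM. CRCT1, a gene of cornifying epithelium, went from 0.67 and 2.23 TPM to 11.97 and 14.8 TPM with IWR1 and from 6.91 and 3.72 TPM to 0.95 and 0 TPM with SOX17. TCL1B, of the TCL1 family of AKT co-activators, stood at 4.05 and 3.25 TPM and 5.15 and 9.43 TPM with IWR1 and at 0 and 0 TPM and 18.9 and 21.3 TPM with SOX17. The call of TCL1B at 48 h was lost under all alternatives but the replicate block and the fit without replicate 2 of the IWR1 route, with a limma adjusted p of up to 0.197.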

How the results depend on the processing

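The direction of every named difference between the routes that was called at 12, 24 or 48 h was the same under all alternatives run. Named changes over time, differences between the starting cells and differences beyond them were not followed gene by gene. With only the libraries of the conditions compared in the fit, 0 DEGs and 0 called genes remained at 12, 24 and 48 h and 0 between the starting cells (2664 at an unadjusted p under 0.05), with 6 genes for the change over time and 291 beyond the starting cells, in fits with few residual degrees of freedom. For the 4 marker genes the largest adjusted p in that fit lay between 0.012 and 0.031. Leaving out 1 library gave 137 to 197, 169 to 191 and 196 to 237 DEGs and 843 to 1302, 899 to 1025 and 1395 to 2194 called genes at 12, 24 and 48 h, 150.0 to 321 changes over time, 557 to 1105 between the starting cells and 1083 to 1522 beyond them. Of 362 calls of named genes at a time, 52 were lost with a pseudocount of 0.1, 26 without the filter, 16 without the trend, 8 and 7 under the other scalings and 3 under the replicate block, and of 1448 such calls with a library left out 312 were lost. Same-numbered replicates of the 2 routes did not deviate together across genes (r = 0.059, −0.124 and 0.048 over 2 pairs a time). A batch shared by same-numbered libraries within a route cannot be seen in this comparison. With a replicate block the DEGs stayed at 151, 172 and 201 in number, and 1719, 1596 and 2451 genes were called. With cjESCs in PESFA in place of the pre-treated cells, 1884 genes differed between the starting cells and 1904 beyond them. The alternatives for named genes other than the 4 markers and for the lists were added after the data were seen.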
